A study of Mus musculus with 20 samples.

Results

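The transcripts described here encode the collagens, laminins, nidogen and perlecan of the basement membrane in mouse heart. They comprise 9 genes (Col4a1, Col4a2, Col15a1, Col18a1, Lama2, Lamb1, Lamc1, Nid1 and Hspg2) of the 8251 genes named on the array. The members are every probe set, a group of short probes read out as 1 intensity, whose only gene symbol in the platform annotation is one of these names. They number 15 of 12488 probe sets, and 10 of them, from 8 genes, were bright enough to be tested. The other 5 lay among the dimmest 40% of probe sets, and Nid1 was represented by such a probe set alone.

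Hearts came from male B6/C3H F1 hybrid mice that were housed singly, with 5 animals in each of 4 groups and 1 array per animal. Old mice of 30 months received a diet with 500 mg/kg each of alpha- and gamma-tocopherol from 15 months of age, or a diet with 1000 mg/kg of alpha-tocopherol from 15 months of age. Old controls of 30 months and young controls of 5 months ate the control diet. The strain entries of old controls 1 and 4 read hybrid without F1. The mixture differed from the single supplement in its lower alpha-tocopherol dose as well as in its gamma-tocopherol, and these cannot be told apart. Alpha- and gamma-tocopherol are the main dietary forms of vitamin E and differ by a methyl group on the chromanol ring.

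The basement membrane is the thin sheet of matrix that surrounds each cardiomyocyte and underlies the endothelium of each vessel. Type IV collagen chains form its covalent network, laminin heterotrimers of an alpha, a beta and a gamma chain form a separate network anchored to cell receptors, and nidogen and the heparan sulfate proteoglycan perlecan join them. Types XV and XVIII collagen lie at the outer face of many basement membranes and carry C-terminal domains related to endostatin, which is a fragment of type XVIII collagen.

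Col4a1 and Col4a2 encode the chains of the most widespread type IV collagen protomer and lie head to head on mouse chromosome 8. In RefSeq sequence of the build GRCm38.p6 their annotated starts face opposite ways, with 22 bases between the windows of 250 bases before each start, and each window lies in the annotated span of the other gene. The windows of 8 of the 9 genes, 9 windows in all, were searched on both strands for 3 motifs, whose matches do not overlap in the sequences shown. The CCAAT box (reverse complement ATTGG) was found in 5 of the 9 windows and in 33.85% of 32851 windows in the genome table. The GC box GGGCGG (reverse complement CCGCCC) was found in 5 of 9 windows and in 32.7% of all windows, and the TATA box TATAAA (reverse complement TTTATA) in 0 of 9 windows and 12.4% of all windows. The stretches around the CCAAT match are shown for the pair of type IV collagen genes because these neighbours carry 2 of the results. The outer of the Col18a1 windows is shown whole because it lay outside every annotated gene. Capitals mark the matches, and a match is a description of the letters only.
Col4a1, chr8:11312954-11312983, minus strand, match beginning 145 bases before the start: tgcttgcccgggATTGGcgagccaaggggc
Col4a2, chr8:11312761-11312790, plus strand, match beginning 32 bases before the start: ccgaggagctccCCAATttgttggcgctgc
Col18a1, chr10:77166531-77166780, minus strand: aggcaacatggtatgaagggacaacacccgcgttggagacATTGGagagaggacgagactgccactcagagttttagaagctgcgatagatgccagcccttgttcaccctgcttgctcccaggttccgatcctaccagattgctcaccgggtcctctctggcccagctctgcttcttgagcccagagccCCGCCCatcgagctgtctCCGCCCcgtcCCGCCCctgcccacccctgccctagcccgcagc
The Col4a1 window held 1 CCAAT match and no GGGCGG match, and the Col4a2 window held 1 and 2. The Col15a1 window, which lies inside the annotated span of Col15a1 itself, held no match to any of the 3 motifs. The windows of Col4a1, Lama2, Lamb1 and Hspg2 and the other Col18a1 window also overlap the annotated span of their own gene. Such windows do not lie wholly upstream of the gene.

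The deposited values are linear intensities, and their trimmed mean was 1501.01 to 1501.14 on every array, so the arrays had been scaled to a common level before deposit. Heart markers such as Myh6 and Tnnt2 were bright on every array, with a summed intensity of 392005 to 666286 over 6 genes. Differences and folds below are on the scale log2(intensity + 58) with the standard error of the limma fit over all 20 arrays, and a probe set was called when its two-sided Benjamini-Hochberg adjusted p over 7453 tested probe sets was below 0.05. Intensities are not compared between probe sets, since each responds to its own probes. In whole hearts, fewer cells of a type and less RNA per cell cannot be told apart.

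In old against young controls, both type IV collagen chains and Col15a1 were higher, and no laminin probe set was called. Of the 10 tested probe sets 3 rose and 0 fell, where 2.74% of all tested probe sets rose and 2.2% fell. All 5 old controls lay above all 5 young controls for these 3 probe sets, which held for 4.23% of all tested probe sets. The median difference of the 10 probe sets was 0.25, against 0.01 for all tested probe sets.

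In old mice given both tocopherols against old controls, Col15a1, Col4a1, Col4a2, 1 of 2 tested Col18a1 probe sets and Hspg2 were lower, and no laminin probe set was called. Of the 10 probe sets 5 fell and 0 rose, where 3.76% of all tested probe sets fell and 2.67% rose. In 4 of them every supplemented animal lay below every old control, as for 4.94% of all tested probe sets. The median difference was -0.38, against -0.01 for all tested probe sets.

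In old mice given alpha-tocopherol against old controls, Col15a1, Col4a2 and 1 of 2 Lamb1 probe sets were lower. Of the 10 probe sets 3 fell and 0 rose, where 12.8% of all tested probe sets fell and 8.94% rose. In 5 of them the groups did not overlap, as for 9.39% of all tested probe sets. The median difference was -0.37, against -0.02 for all tested probe sets. The age comparison and both supplement comparisons share the old controls, so an old control value that was high by chance enters all 3 of them.

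The alpha-tocopherol arrays also stood apart in their control probes. The hybridization controls, bacterial transcripts added to each sample, exceeded old controls by 0.85 (log2) in alpha-tocopherol hearts and by 0.28 in hearts given both tocopherols (exact permutation p = 0.0079 and 0.16; 0.0079 is the smallest that 5 against 5 arrays allow). The 18S ribosomal RNA signal was 1.66 higher in alpha-tocopherol hearts and 0.52 higher in hearts given both, each against old controls (exact permutation p = 0.0079 and 0.26). Over the 24 such tests the Benjamini-Hochberg adjusted values were 0.032, 0.32, 0.032 and 0.45. With either measure as a covariate the alpha-tocopherol calls on Col15a1, Col4a2 and Lamb1 were lost (values are given with each gene). In both measures every alpha-tocopherol array lay above every old control. The ranges were 13.32 to 13.78 against 12.55 to 12.92 for the hybridization controls and 12.21 to 12.74 against 10.16 to 11.23 for 18S. A fit can hardly tell such a covariate from the diet, so the lost calls decide nothing between them. The part of these controls in the alpha-tocopherol results was not tested. The Gapdh signal at the transcript's 3' end minus that at its 5' end, a measure of RNA integrity, was 1.21 (log2) in old control 3, against -0.15 to -0.11 in the other 4 old controls. The same measure for actin was 0.23 in old control 3, within the range of 0.08 to 0.29 over the old controls. Leaving out old control 3 lost 4 of the 12 member calls: Col4a2 with age (0.33, adjusted p = 0.088), Lamb1 with alpha-tocopherol (-0.55, adjusted p = 0.062), and Hspg2 (-0.53, adjusted p = 0.10) and Col18a1 (-0.63, adjusted p = 0.060) with both tocopherols. The other 8 calls were kept. Such losses were not particular to that array. Leaving out old control 1, at -0.14 in the Gapdh measure, also lost Col4a2 with age (0.37, adjusted p = 0.064). It lost Hspg2 (-0.64, adjusted p = 0.059) and Col18a1 (-0.67, adjusted p = 0.052) with both tocopherols. Lama2 with alpha-tocopherol against young controls was lost there too (-0.48, adjusted p = 0.0505).

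**Figure D1:**
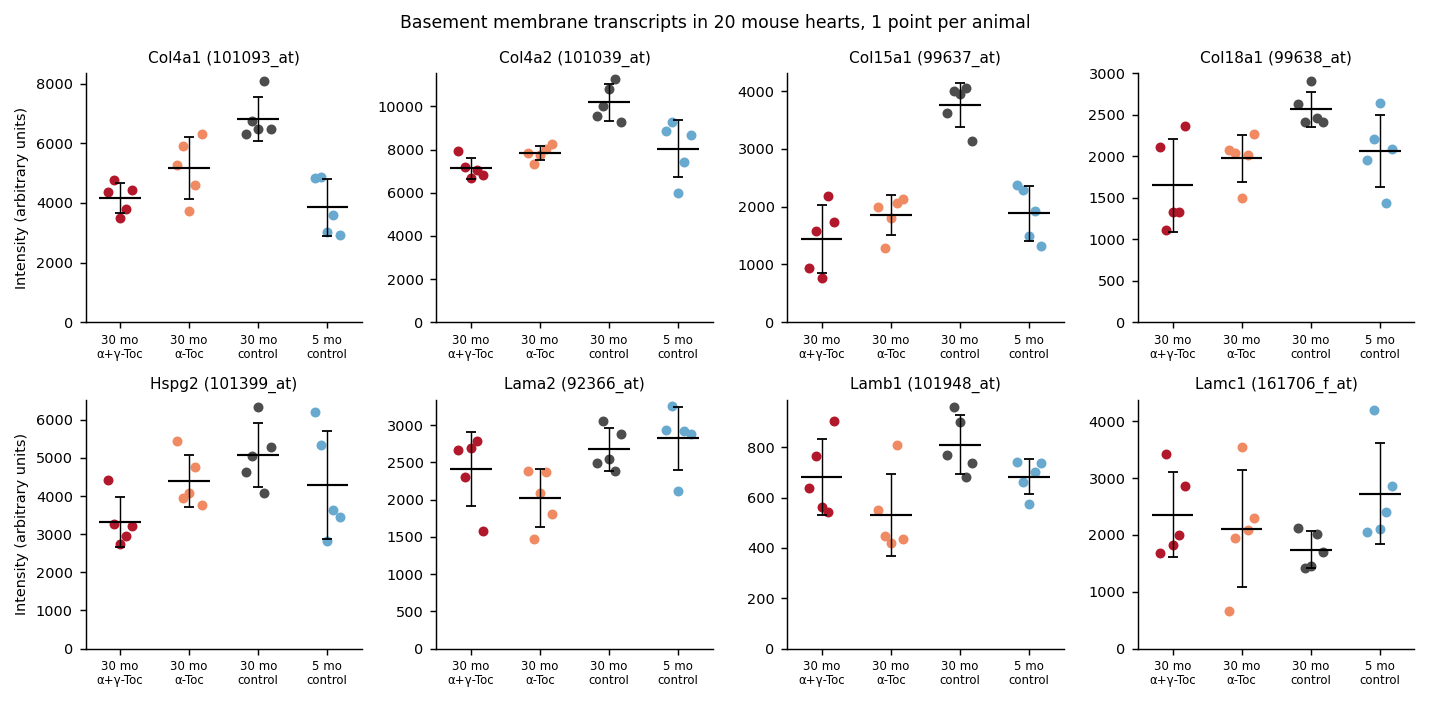
Deposited intensity (arbitrary units, linear axes from 0) of 8 basement membrane probe sets in each of 20 hearts. Points are animals, and bars are group means with the SD of 5 animals. Old controls are highest for Col4a1, Col4a2 and Col15a1, while the laminin chains overlap between most groups.

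Col4a1 showed the age difference with the smallest adjusted p among the tested members. Its intensity was 4353, 4765, 3479.5, 3808 and 4427 in old hearts given both tocopherols and 5279.6, 5915, 3721, 4589 and 6309 in old hearts given alpha-tocopherol. It was 6325, 6734.5, 6465, 8092 and 6465 in old controls, against 4847, 4874, 3039, 3608 and 2926 in young controls. Every old control exceeded every heart of the other 3 groups. Col4a1 rose by 0.84 ± 0.15 in old against young controls (adjusted p = 0.0019), or 1.79-fold, and was called in 34 of 34 alternative analyses. It fell by 0.71 ± 0.15 in hearts given both tocopherols against old controls (adjusted p = 0.0088) and was called in 33 of 34. That call was lost without old controls 1 and 4, at -0.66 and an adjusted p of 0.059. With alpha-tocopherol the difference was -0.42 ± 0.15 (adjusted p = 0.056), just short of the threshold, and 9 of 34 alternatives called it.

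Col4a2 encodes the partner chain of Col4a1. Its intensity was 7912, 7187, 6685.5, 7035 and 6824.5 in hearts given both tocopherols and 7834, 7339, 7736, 8016 and 8239 in hearts given alpha-tocopherol. It was 9535, 10010.1, 10824, 11269 and 9261 in old controls, against 8843, 9255, 5991.5, 7439 and 8650 in young controls. Old controls were again above all other hearts, but the margin over the highest young control, 9255, was small. Col4a2 fell by 0.51 ± 0.10 with both tocopherols (adjusted p = 0.0054), a call kept in 34 of 34 alternatives. It fell by 0.37 ± 0.10 with alpha-tocopherol (adjusted p = 0.012), and it was called in 31 of 34. With the hybridization controls as a covariate that value was -0.49 (adjusted p = 0.14), with 18S it was -0.42 (adjusted p = 0.18), and without old controls 1 and 4 it was -0.35 (adjusted p = 0.059). The age difference of 0.35 ± 0.10 lay close to the threshold (adjusted p = 0.047) and was called in 11 of 34 alternatives. The call was lost without young control 3 (0.25), 4 (0.33) or 5 (0.38), without old control 1 (0.37), 2 (0.36), 3 (0.33) or 4 (0.31), and without some animals of the other groups, at adjusted p of up to 0.12. The difference was positive in 34 of 34 alternatives.

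Within groups the chains of the pair did not vary together beyond the multiple test threshold. Across the 20 hearts, after removing group means, Col4a1 and Col4a2 had a Pearson r of 0.493 (permutation p = 0.088, Benjamini-Hochberg adjusted 0.459 over 36 pairs of members) and a Spearman rho of 0.435 (permutation p = 0.117, adjusted 0.601). Without the 2 hearts farthest from the Col4a1 median r was 0.459. None of the 36 pairs passed, and the lowest adjusted p was 0.117, for Col15a1 with Nid1 at a Pearson r of 0.557 (permutation p = 0.0032) and a Spearman rho of 0.528 (permutation p = 0.0091, adjusted 0.328).

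Col15a1 encodes the type XV collagen chain, which is abundant around cardiac muscle and capillaries. It showed the largest called difference of the tested members in each of the 3 comparisons. Its intensity was 932, 1575.5, 774, 2186 and 1739 in hearts given both tocopherols and 1990.5, 1282, 1799, 2067 and 2133.5 in hearts given alpha-tocopherol. It was 3621, 4009, 3954, 4053 and 3138 in old controls, against 2383, 2289.5, 1499, 1919.8 and 1322 in young controls. The lowest old control, 3138, stood above the highest heart of every other group, and the other 3 groups overlapped one another. Col15a1 rose by 1.00 ± 0.22 in old against young controls (adjusted p = 0.0082), or 2.01-fold. It fell by 1.44 ± 0.22 with both tocopherols (adjusted p = 0.00074) and by 1.01 ± 0.22 with alpha-tocopherol (adjusted p = 0.0027).

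The Col15a1 call with both tocopherols was kept in 34 of 34 alternatives. The age call was kept in 33 of 34, the exception being the fit without old controls 1 and 4, with a difference of 0.98 and an adjusted p of 0.062. The alpha-tocopherol call was kept in 32 of 34, and was lost with the hybridization controls as a covariate (-0.78, adjusted p = 0.30) and with 18S (-1.03, adjusted p = 0.13).

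**Figure D2:**
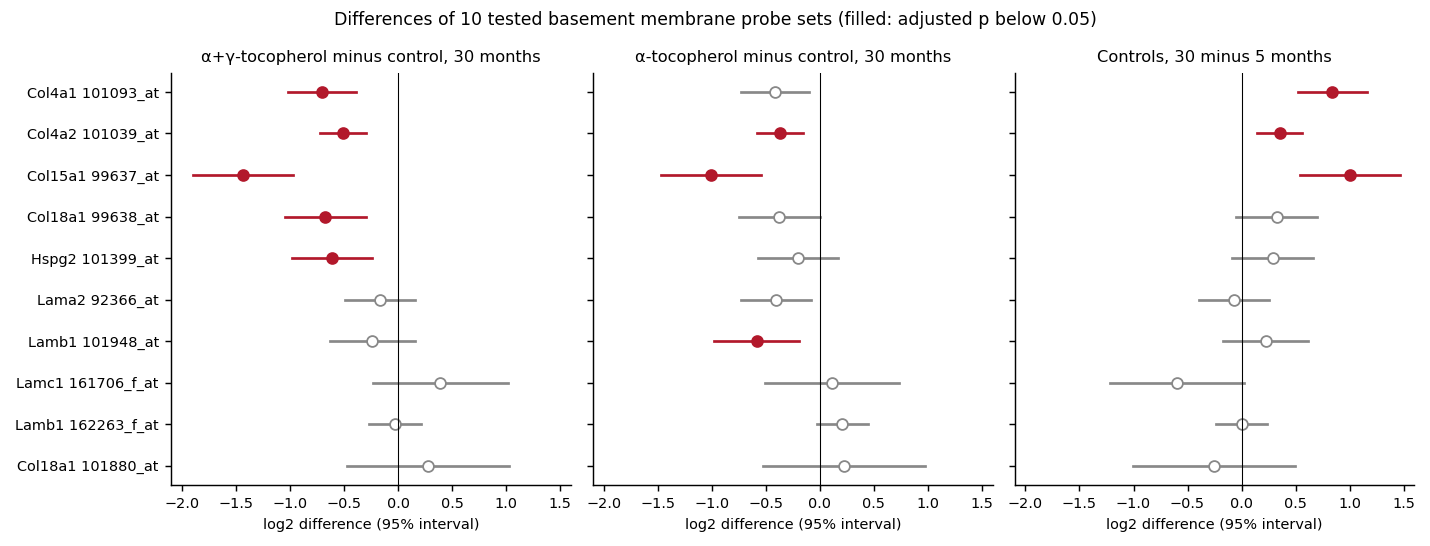
Log2 differences with 95% intervals for the 10 tested probe sets, in hearts given both tocopherols against old controls, hearts given alpha-tocopherol against old controls, and old against young controls. Filled points had an adjusted p below 0.05. Col15a1 lies farthest from 0 in all 3 panels, at -1.44, -1.01 and 1.00.

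Col18a1 encodes the type XVIII collagen core protein, the parent of endostatin, and was measured by 5 probe sets that did not move alike. The brightest, 99638_at, read 2118, 1108, 1333.5, 1324 and 2371 in hearts given both tocopherols and 2071, 2035, 1503, 2013.5 and 2266 in hearts given alpha-tocopherol. It read 2629, 2415, 2912, 2468 and 2411.5 in old controls, against 1959, 2214.5, 2638, 1438 and 2093 in young controls. Every supplemented heart was below every old control, and 1 young control lay within the range of the old controls. It fell by 0.68 ± 0.18 with both tocopherols (adjusted p = 0.027), a call kept in 27 of 34 alternatives. It was lost without old control 1 (-0.67) or 3 (-0.63) and without heart 2 (-0.55), 3 (-0.62) or 4 (-0.61) of the mixture group. The value was -0.42 with the hybridization controls as a covariate (adjusted p = 0.14). The differences of -0.38 ± 0.18 with alpha-tocopherol (adjusted p = 0.14) and 0.33 ± 0.18 with age (adjusted p = 0.36) did not pass. With the hybridization controls as a covariate the alpha-tocopherol value changed sign, to 0.38 (adjusted p = 0.44), and with 18S it was -0.74 (adjusted p = 0.15). It was called in 1 of 34 alternatives.

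A dim Col18a1 probe set, 101881_g_at, lay below the brightness limit and showed wider differences. It read 145, 89.5, 55.7, 69.3 and 65.9 in hearts given both tocopherols and 219.9, 129, 103, 152 and 104.5 in hearts given alpha-tocopherol. It read 355.5, 378, 343.5, 389.5 and 400.2 in old controls, against 315, 97.5, 198, 53.8 and 59.2 in young controls. The old controls were again above every other heart and were close to one another, while the young controls were spread widely. In a limma fit to all 12422 probe sets, without the brightness limit, it rose by 1.25 ± 0.30 with age (adjusted p = 0.023) and fell by 1.62 ± 0.30 with both tocopherols (adjusted p = 0.0042) and by 1.14 ± 0.30 with alpha-tocopherol (adjusted p = 0.014). It was the only one of the 5 dim member probe sets called there in these 3 comparisons. Values this close to the added constant of 58 understate a change, and no detection calls were used.

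The remaining Col18a1 probe sets were not called. For 101880_at the differences were -0.25 ± 0.36 with age, 0.28 ± 0.36 with both tocopherols and 0.22 ± 0.36 with alpha-tocopherol. These signs are opposite to those of 101881_g_at, which is listed with the same source sequence. The tested 101880_at ranged from 219.8 to 517 with both tocopherols, 155 to 673 with alpha-tocopherol, 103.5 to 553 in old controls and 244 to 521 in young controls, so all groups overlapped. The dim 101882_s_at ranged from 111.5 to 185 with both tocopherols and 121 to 216 with alpha-tocopherol, against 201 to 305.5 in old controls and 120.5 to 281 in young controls. The dim 162483_f_at spanned 50.7 to 394 over all hearts. The g, s and f in these names mark probes that can match related sequences, so their assignment to Col18a1 alone is uncertain.

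**Figure D3:**
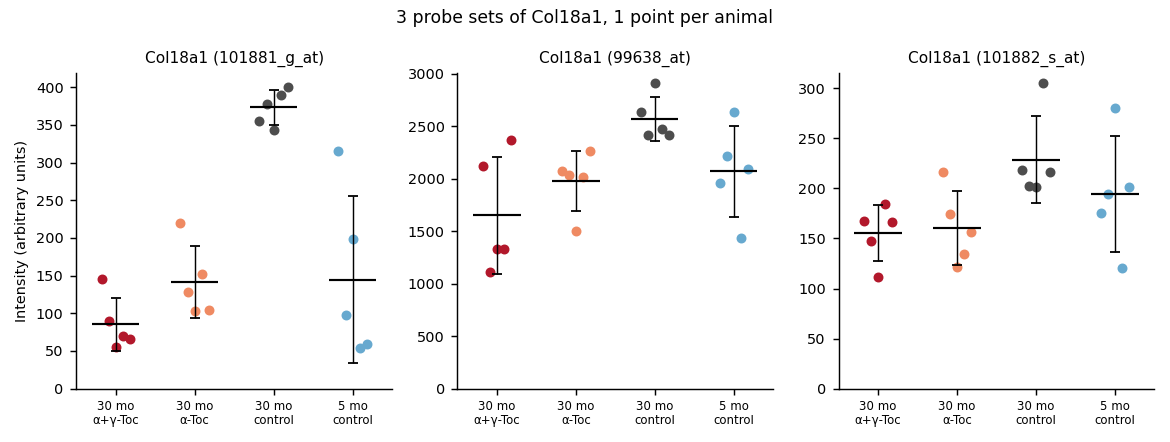
Deposited intensity (arbitrary units, linear axes from 0) of 3 of the 5 Col18a1 probe sets in each of 20 hearts. Group means are shown with the SD of 5 animals. The differences of the tested 101880_at, given in the text, had the opposite signs to those of 101881_g_at. In the dim 101881_g_at the old controls sit between 343.5 and 400.2, above every other heart.

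Hspg2 encodes perlecan, which binds laminin, type IV collagen and growth factors. Its intensity was 4425, 3259, 2737, 2958 and 3218 in hearts given both tocopherols and 5435, 3943, 4086, 4758 and 3760.5 in hearts given alpha-tocopherol. It was 4639, 5041, 6348, 4090.5 and 5285 in old controls, against 6201, 5345, 2833, 3621 and 3439 in young controls. Of the hearts given both tocopherols, 1 overlapped the old controls and 4 lay below them, while the young controls spanned almost the whole range. Hspg2 fell by 0.61 ± 0.18 with both tocopherols (adjusted p = 0.043), a call kept in 21 of 34 alternatives. It was lost without old control 1 (-0.64), 2 (-0.61), 3 (-0.53) or 5 (-0.59) and without heart 2 (-0.61), 3 (-0.55), 4 (-0.57) or 5 (-0.60) of the mixture group, at adjusted p of up to 0.10. It did not pass with alpha-tocopherol, at -0.20 ± 0.18 (adjusted p = 0.43), or with age, at 0.29 ± 0.18 (adjusted p = 0.44).

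Nid1 encodes nidogen-1, the linker between laminin and type IV collagen, and its only probe set was dim and not called in the fit without the brightness limit. It ranged from 107 to 274 with both tocopherols and 89.6 to 370.5 with alpha-tocopherol, against 118 to 339 in old controls and 174 to 263 in young controls.

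Lama2 encodes the laminin alpha chain of striated muscle, whose loss causes a congenital muscular dystrophy in humans and mice. Its intensity was 2671, 2306, 2700.2, 2791 and 1578 in hearts given both tocopherols and 2384, 1473, 2090, 2378 and 1809.6 in hearts given alpha-tocopherol. It was 2491, 3064, 2545, 2390.2 and 2888.5 in old controls, against 2935.5, 3257, 2117, 2929 and 2888 in young controls. All alpha-tocopherol hearts were below all old controls, although the nearest values, 2384 and 2390.2, almost touched. No difference from old controls passed: -0.17 ± 0.16 with both tocopherols (adjusted p = 0.56) and -0.41 ± 0.16 with alpha-tocopherol (adjusted p = 0.067). With the hybridization controls as a covariate the alpha-tocopherol difference was -1.04 and passed (adjusted p = 0.022), and with 18S it was -0.09 (adjusted p = 0.88). It was called in 4 of 34 alternatives, at adjusted p of 0.022 to 0.88. The age difference was -0.07 ± 0.16 (adjusted p = 0.88), with a 95% interval of -0.39 to 0.26.

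Lamb1 encodes a laminin beta chain and was measured by 2 tested probe sets that disagreed. The dimmer, 101948_at, read 637, 765, 563, 544 and 906 in hearts given both tocopherols and 551, 447, 418.5, 808 and 437 in hearts given alpha-tocopherol. It read 770.5, 961, 901, 683 and 738 in old controls, against 742, 663, 573, 703 and 737 in young controls. Of the alpha-tocopherol hearts, 4 were below the old controls and 1, at 808, was within their range. It fell by 0.58 ± 0.19 with alpha-tocopherol (adjusted p = 0.031), a call kept in 23 of 33 alternatives and lost with the hybridization controls (-0.47, adjusted p = 0.48) and 18S (-0.90, adjusted p = 0.11) as covariates. Leaving out old control 2 or 3 or alpha-tocopherol heart 2, 3 or 5 also ended the call, at differences of -0.55 to -0.52. The differences were -0.24 ± 0.19 with both tocopherols (adjusted p = 0.48) and 0.22 ± 0.19 with age (adjusted p = 0.61). The brighter 162263_f_at ranged from 1606 to 2007 with both tocopherols and 2046 to 2272 with alpha-tocopherol, against 1668 to 2074 in old controls and 1348 to 2112 in young controls, and was called in no comparison. It may share probes with related sequences.

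Lamc1 encodes the gamma chain found in most laminins. Its tested probe set, 161706_f_at, read 1682, 3416, 1831, 1995 and 2869 in hearts given both tocopherols and 665, 1938, 3552, 2093.5 and 2289 in hearts given alpha-tocopherol. It read 2129.9, 1419, 1455, 2009 and 1699 in old controls, against 2047, 4206, 2099.7, 2409 and 2854 in young controls. Here the old controls were low rather than high, overlapping every other group, and no difference passed. Like the brighter Lamb1 probe set, 161706_f_at may share probes with related sequences. The differences were 0.39 ± 0.30 with both tocopherols (adjusted p = 0.47), 0.11 ± 0.30 with alpha-tocopherol (adjusted p = 0.82) and -0.59 ± 0.30 with age (adjusted p = 0.30). The dim Lamc1 probe set 102404_at ranged from 42.4 to 443 over all hearts and was not called without the brightness limit.

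**Figure D4:**
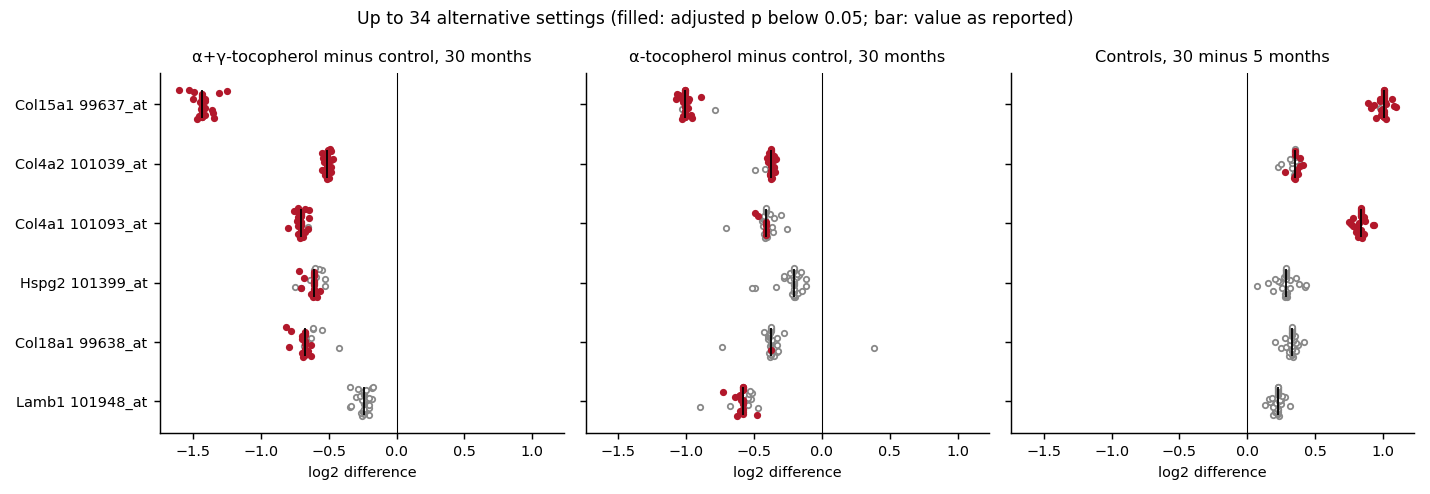
Log2 differences of 6 probe sets under up to 34 alternative settings in the same 3 comparisons, with leaving out each animal in turn among them. Filled points had an adjusted p below 0.05, and the bar is the value given in the text. Col15a1 lies between -1.61 and -1.25 with both tocopherols, between -1.07 and -0.78 with alpha-tocopherol and between 0.89 and 1.10 with age.

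The supplements were then compared with each other over the 10 probe sets. Of these 0 were called by limma, where 0.564% of all tested probe sets were. Only 1, Hspg2, had an unadjusted p below 0.05, against 1183 of all 7453 tested probe sets. Hspg2 differed by -0.41 ± 0.18 in hearts given both tocopherols against hearts given alpha-tocopherol (95% interval -0.78 to -0.03, adjusted p = 0.27). Col15a1 differed by -0.43 (95% interval -0.89 to 0.04), Col4a1 by -0.29 (95% interval -0.61 to 0.03) and Col4a2 by -0.14 (95% interval -0.35 to 0.08). The interval was -0.67 to 0.07 for Col18a1 99638_at, -0.09 to 0.56 for Lama2, -0.05 to 0.74 for Lamb1 101948_at and -0.34 to 0.90 for Lamc1. These intervals leave room for differences as wide as several of the called ones, so they do not show that the supplements act alike. Lamb1 162263_f_at was lower in every heart given both tocopherols than in every heart given alpha-tocopherol, with an adjusted p of 0.31, and 1.6% of all tested probe sets were separated in this way.

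Set against young controls, 0 of the 10 probe sets were called in old hearts given both tocopherols, where 5.55% of all tested probe sets were. In the limma fit 0 of the 10 had an unadjusted p below 0.05, against 1485 of all 7453. Col15a1 differed by -0.43 (95% interval -0.89 to 0.03), Col4a1 by 0.13 (95% interval -0.18 to 0.45) and Col4a2 by -0.16 (95% interval -0.37 to 0.06). In old hearts given alpha-tocopherol against young controls 1 of 10 was called, where 15.6% of all tested probe sets were. That was Lama2, which fell by 0.48 ± 0.16 (adjusted p = 0.043). The call was kept in 19 of 34 alternatives. It was lost without young control 1, 2, 4 or 5, old control 1, or alpha-tocopherol heart 2, 3 or 5, at differences of -0.49 to -0.37, and the difference was -0.12 with 18S as a covariate (adjusted p = 0.88) but -1.04 with the hybridization controls (adjusted p = 0.010). Col15a1 differed by -0.01 (95% interval -0.47 to 0.45), Col4a2 by -0.02 (95% interval -0.23 to 0.19) and Col4a1 by 0.42 ± 0.15 (adjusted p = 0.063).

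In order of mean level, Col15a1 ran from hearts given both tocopherols through alpha-tocopherol hearts and young controls to old controls, and of these steps only the one up to old controls was called. Col4a1 ran from young controls through both tocopherols and alpha-tocopherol to old controls. The neighbouring groups were not called in any of these steps for Col4a1, the step from alpha-tocopherol hearts to old controls having an adjusted p of 0.056.

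Of 29 other genes of the basement membrane or adjoining matrix, with type VI collagen and fibronectin among them, 18 were tested. With age 0 rose and 0 fell by limma, and 3 had an unadjusted p below 0.05, against 1342 of all 7453 tested probe sets. With both tocopherols 0 rose and 0 fell, and 8 had an unadjusted p below 0.05, against 1710 of all 7453. With alpha-tocopherol Tinagl1 (0.68) and Ntn1 (0.48) rose, while Lamb3 (-0.73), Fbln2 (-0.55) and Col6a1 (-0.45) fell. Over all tested probe sets 8.94% rose and 12.8% fell with alpha-tocopherol. The medians of this list were -0.26 with both tocopherols, -0.24 with alpha-tocopherol and 0.02 with age, against -0.01, -0.02 and 0.01 for all tested probe sets.

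Sparc, a collagen-binding protein of the basement membrane, differed by -0.39 ± 0.21 with both tocopherols (adjusted p = 0.26), 0.01 ± 0.21 with alpha-tocopherol (adjusted p = 0.98) and 0.37 ± 0.21 with age (adjusted p = 0.37). The vascular laminin chains Lama4 and Lama5, the beta chain Lamb2, and agrin (Agrn), a heparan sulfate proteoglycan, were not called in these 3 comparisons. Lama5 came nearest, at -0.46 ± 0.18 with alpha-tocopherol (adjusted p = 0.075).

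Of 22 receptors for these proteins 14 were tested, and 0 were called with age by limma. With age 2 had an unadjusted p below 0.05, against 1342 of all 7453 tested probe sets. With both tocopherols 2 rose, the syndecan Sdc4 (0.83) and the laminin-binding integrin chain Itga3 (0.53), and 0 fell. With alpha-tocopherol 3 rose, Sdc4 (1.72), Sdc1 (0.83) and Itga3 (0.66), and 3 fell, Itga6 (-0.67), Sgcb (-0.53) and Itgb1 (-0.34). Over all tested probe sets 2.67% rose and 3.76% fell with both tocopherols, and 8.94% rose and 12.8% fell with alpha-tocopherol. Dystroglycan (Dag1) and Itga7, the laminin receptors of striated muscle, were not called in any comparison.

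Of 16 collagen processing genes 11 were tested and 0 were called with age by limma. With age 2 had an unadjusted p below 0.05, against 1342 of all 7453 tested probe sets. Crtap, which takes part in prolyl hydroxylation of collagen, fell by 0.48 with both tocopherols and by 0.43 with alpha-tocopherol. P4hb rose by 0.45 with alpha-tocopherol. For this list and the next, the shares of all tested probe sets that rose and fell were 8.94% and 12.8% with alpha-tocopherol. With both tocopherols they were 2.67% and 3.76%. The collagen chaperone Serpinh1 was 0.56 ± 0.19 higher in old than in young controls without passing (adjusted p = 0.085), and its differences from old controls were 0.23 ± 0.19 with both tocopherols and 0.10 ± 0.19 with alpha-tocopherol, neither called. Of 14 matrix breakdown genes 9 were tested, and Timp2, an inhibitor of matrix metalloproteinases, fell by 0.89 with both tocopherols and by 0.75 with alpha-tocopherol, the only call in this list in the 3 comparisons.

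Endothelial cells make much of the vascular basement membrane, and their markers were called in the same directions as the collagens. Of 14 tested endothelial markers 3 rose with age (Cd93, 1.19; Cldn5, 0.95; Pecam1, 0.65), while 4 fell with both tocopherols (Cd34, -0.97; Cldn5, -0.94; Tie1, -0.57; Pecam1, -0.48) and 4 with alpha-tocopherol (Cd34, -1.02; Cldn5, -0.95; Icam2, -0.60; Cdh5, -0.52). Over all tested probe sets 2.74% rose with age, 3.76% fell with both tocopherols and 12.8% fell with alpha-tocopherol. The medians of the endothelial markers were -0.28 with both tocopherols, -0.29 with alpha-tocopherol and 0.29 with age. These signs were not particular to endothelium. In the same order the medians were -0.31, -0.69 and 0.22 for fibroblast, -0.35, -0.51 and 0.07 for mural and -0.28, -0.66 and 0.12 for macrophage markers. They were 0.01, 0.33 and -0.04 for cardiomyocyte and 0.40, 0.63 and -0.15 for skeletal muscle markers. The summed intensity of the endothelial markers was 33083 to 38058 with both tocopherols, 32419 to 37016 with alpha-tocopherol, 39047 to 45329.9 in old controls and 30529.7 to 40093 in young controls, and 0 of the 14 were at 0 on any array. The part of these markers in the collagen results was not tested.

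Other cell type markers also moved with the supplements. For these and the following markers, the shares of all tested probe sets that rose and fell are given first. They were 2.67% and 3.76% with both tocopherols, 8.94% and 12.8% with alpha-tocopherol, and 2.74% and 2.2% with age. Of 7 mural markers 1 fell with both tocopherols (Acta2, -0.65), 2 with alpha-tocopherol and 0 with age. With age 1 had an unadjusted p below 0.05, against 1342 of all 7453 tested probe sets. Summed mural intensities were 11101 to 15588 with both tocopherols and 11008 to 15791 with alpha-tocopherol. They were 14167 to 19324 in old controls and 11267 to 19125 in young controls. Of 11 fibroblast markers 4 fell and 1 rose with both tocopherols, 8 fell and 1 rose with alpha-tocopherol, and 1, Tcf21 (0.61), rose with age. Col3a1, a fibrillar collagen, fell by 1.54 with both tocopherols and by 1.39 with alpha-tocopherol. Summed fibroblast intensities were 80893 to 117640.2 with both tocopherols, 85703 to 126037 with alpha-tocopherol, 110659 to 122705 in old controls and 106447 to 129980 in young controls. Of 9 cardiomyocyte markers 1 rose with both tocopherols, 6 rose with alpha-tocopherol and 1 fell with age.

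Of 7 macrophage markers 1 fell with both tocopherols, 4 fell with alpha-tocopherol and 0 changed with age. Of 4 skeletal muscle markers 1 rose with both tocopherols, 3 with alpha-tocopherol and 0 with age. Of 3 liver markers 2 fell with each supplement, including Alb, at -4.33 with both tocopherols and -4.71 with alpha-tocopherol, and 0 changed with age. Of 2 Schwann and nerve markers 1 fell with alpha-tocopherol, and 0 of 3 adipocyte markers were called in the 3 comparisons. The part of these lists in the results on basement membrane genes was not tested.

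**Figure D5:**
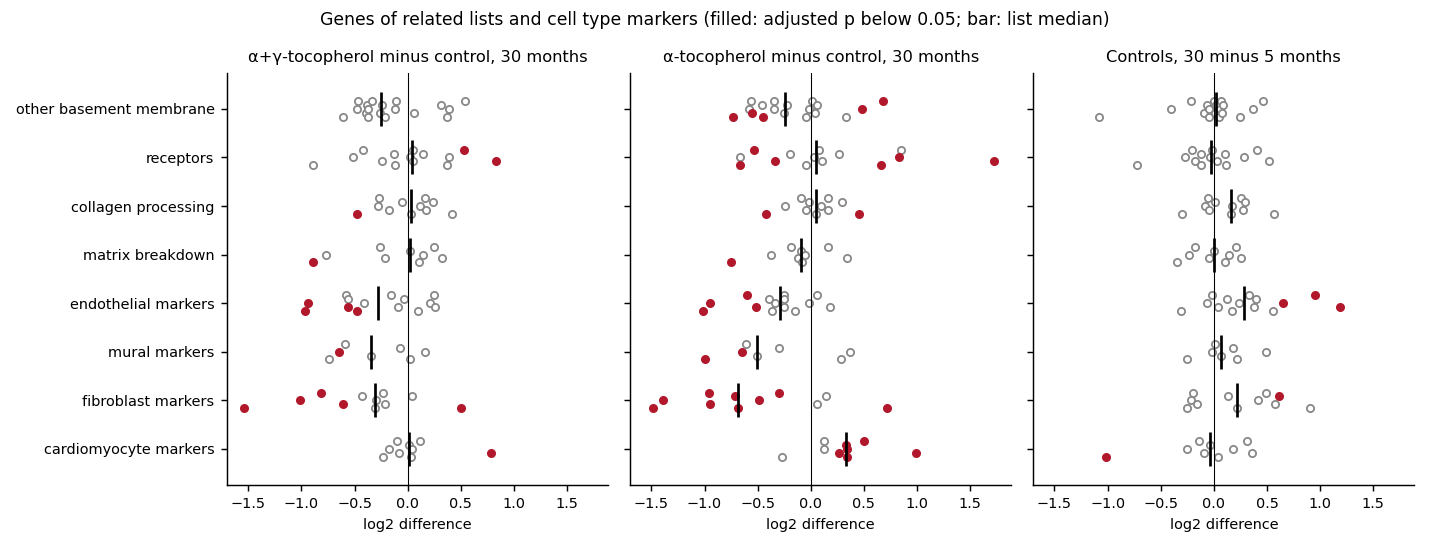
Log2 differences of the tested genes of 4 related lists and 4 cell type marker lists in the same 3 comparisons. Each point is a gene, filled points had an adjusted p below 0.05, and the bar is the list median. Endothelial markers have medians of -0.28, -0.29 and 0.29, and fibroblast markers of -0.31, -0.69 and 0.22.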

How the data were processed

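Poly(A) RNA of 20 mouse hearts was labelled and hybridised to 1 array per animal, per the labels' protocols, which state 5 animals per group. The deposited intensity is linear, and its values lay between 0.4 and 275793. The software behind the deposited table was not given in the sources used here. Each of its arrays has a mean near 1501 once 2% is trimmed at each end. On the log2 scale the medians of the arrays spanned 0.115, so this scaling was kept.

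From the deposited intensities, log2(intensity + 58) was computed, 58 being about the 10th percentile of all values (57.6), which understates changes of dim probe sets. Of 12488 probe sets, 66 controls and the dimmest 40% of the rest by mean were left out. Of the 12422 others, the platform annotation gave 1 symbol to 10833, several to 396 and none to 1193. Means of 4 groups were fitted to 7453 probe sets with limma 3.58.1 in R 4.3.3 (lmFit, then eBayes with a variance trend and robust estimation; 16 residual degrees of freedom), with two-sided Benjamini-Hochberg adjustment over all of them. The number of arrays limits precision, and the median standard error was 0.18.

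The fit was tested on simulated data with known changes. The members, lists, markers and alternatives were chosen with earlier results of these data known. All member probe sets were named. Of the related lists (other basement membrane, receptors, collagen processing, matrix breakdown) up to 4 called genes per comparison with the largest differences were named, plus 10 fixed genes where tested. Array measures were compared by exact permutation, and correlations of residuals by 1e+05 permutations within groups. Alternatives changed the pseudocount, the filter, the scaling, the variance model, the array weights, the groups in the fit, the covariates or the animals included. Promoter sequences came from RefSeq, build GRCm38.p6.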

Additional observations from a re-analysis of the deposited data

Results flagged for a closer look

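In 60 sets of 5 hearts, each a member probe set in 1 group, 5 had a highest or lowest heart whose gap to the nearest heart was 0.711 to 0.809 of the group's range on the log2 scale, above the 95% limit for 5 values. Chance gives about 1 in 20. Col4a1 read 8091.8 in old control 4, where the next highest old control read 6734.5. The dim Col18a1 probe set 101882_s_at also had its highest value in old control 4, at 305.5, with the next at 218.7. Young control 3 was low for Lamb1 162263_f_at, at 1348.4 against 1924.2 for the nearest young control, and for Lama2, at 2117.1 against 2888.3. Alpha-tocopherol heart 3 was low for Col18a1 99638_at, at 1502.9 against 2013.5 for the nearest heart of that group. Without young control 3 the age difference of Lama2 was -0.17, and without old control 4 the age difference of Col4a1 was 0.78.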

How the results depend on the processing

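Of 12 called differences, 407 values under 34 alternatives were computed, of which 332 passed and 407 kept their sign. Of 28 differences not called, 930 of 949 alternative values were not called either. Without old controls 1 and 4, 1 member probe set changed with age, 1 with alpha-tocopherol and 2 with both tocopherols against old controls. With the hybridization control covariate 3 were called with both, and 1 with alpha-tocopherol, Lama2, which the main fit had not called. Of the main alpha-tocopherol calls 0 were kept with that covariate, and with the 18S covariate 0 probe sets were called with alpha-tocopherol. With alpha-tocopherol against young controls 0 changed without a filter on dim probe sets, with quantile normalization, without variance trend and robust estimation together, with only the compared groups, with 18S or without old controls 1 and 4, and 2 changed with the dimmest 60% left out. Leaving out single animals gave 2 to 3 changed probe sets with age, 2 to 4 with alpha-tocopherol and 3 to 5 with both against old controls, 0 to 0 between the supplements, and, against young controls, 0 to 1 with alpha-tocopherol and 0 to 0 with both. The same-numbered animals of different groups had correlations of deviations of -0.08 to 0.10, so the numbers were not taken as pairs. The replicate block gave 2 with age, 4 with alpha-tocopherol, 5 with both, and 0, 1 and 0 in the comparisons of both with alpha-tocopherol, alpha-tocopherol with young controls and both with young controls; it ended the Col4a2 age call (adjusted p = 0.070) and the Lama2 call against young controls (adjusted p = 0.056).

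Among the differences followed singly, signs changed only in those that were not called. With alpha-tocopherol against old controls these were Lamc1 with array weights (-0.021), with 18S (-0.14) and leaving out single animals (-0.11 to 0.47), and Col18a1 99638_at with the hybridization controls (0.38). Lama2 with age was 0.013 without old controls 1 and 4. Against young controls, alpha-tocopherol Col15a1 was 0.016 with quantile normalization, 0.20 with the hybridization controls and -0.12 to 0.12 without single animals, and Col4a2 was -0.12 to 0.034. Between the supplements Lamc1 was -0.076 to 0.50 without single animals. The cause was not tested. Over all probe sets, calls with alpha-tocopherol against old controls numbered 1619, but 144 with the hybridization controls, 142 with 18S and 981 without old controls 1 and 4; calls with both tocopherols numbered 479, but 242 with the hybridization controls, 858 with array weights and 162 without old controls 1 and 4; calls with age numbered 368, but 731 with array weights and 150 without old controls 1 and 4. Calls with alpha-tocopherol against young controls numbered 1166, but 189 with the hybridization controls and 52 with 18S. The alpha-tocopherol arrays lay above all old and young controls in both measures, so these fits can hardly tell covariate and group apart. Calls between the supplements numbered 42, and 0 to 79 over the alternatives. Dim probe sets, near the added constant, limit what can be seen of Nid1.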

Other observations

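The named genes most like Col4a1 over all 20 hearts were Rflnb, Gng11, Myadm, Snrnp27 and Tpm4, with Pearson r of 0.857, 0.835, 0.834, 0.821 and 0.813, of 5655 genes compared. Those most like Col15a1 were Trak1, Speg, Dbp, Tubb3 and Crhr2, with Pearson r of 0.910, 0.825, 0.815, 0.799 and 0.793. These values include the differences between groups, all come from the same arrays, and describe likeness only.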
